A study of Glycine max with 12 samples.

Results

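Cyclins and the mitotic B-type cyclin-dependent kinases (CDKB) of soybean (Glycine max) were followed across 12 RNA-Seq libraries. A gene model was taken where its annotated domains include the cyclin N-terminal domain (PF00134) or where its closest Arabidopsis gene is one of the CDKB genes. This gave 98 of the 56044 models, 91 by the domain and 7 by the kinase match. By closest Arabidopsis gene the members were 21 A-type, 14 B-type and 40 D-type cyclins, 14 transcription cyclins of the C, H, L and T groups, 1 match to CYCJ18, 1 match to the meiotic cyclin SDS, and the 7 CDKB models. The gene name given where a model is first described is that of the closest Arabidopsis gene, so several soybean models carry the same name, and roles are known from Arabidopsis.

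The study concerned the I locus, which controls seed coat colour, and sampled the Williams cultivar (ii genotype, yellow seed coat) in 11 libraries and the W55 line in 1. The 5 growing Williams libraries were cotyledon and seed coat of 5-6 mg immature seed, seed coat of 25-50 mg seed, root of 5 day seedlings and furled trifoliate leaf of 1 to 1.5 inch from adult plants. The 6 desiccating or dry Williams libraries were cotyledon, embryo axis and seed coat of 200-300 mg yellow seed, embryo axis of 300-400 mg yellow seed, and cotyledon and seed coat of mature dry seed. W55 gave 1 library, from seed coat of 25-50 mg seed, and carries the recessive i mutation, a deletion within the I locus that turns the coat black. This mutation arose in a cultivar made by crossing disease resistance into Williams, so the W55 and Williams libraries may differ at other loci too. All plants were inbred and grown in a greenhouse, the seeds were dissected by hand, and each group was 1 library without a replicate. No p-value was therefore computed, and intervals are exact Clopper-Pearson 95% intervals that cover counting error only.

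Cyclins are the regulatory partners of cyclin-dependent kinases. In Arabidopsis the D-type cyclins act with CDKA on the retinoblastoma-related protein and admit cells to DNA synthesis, the A-type cyclins act from DNA synthesis to mitosis, and the B-type cyclins and the plant-specific CDKB kinases act at entry into mitosis. The C, H, L and T groups for the most part partner kinases of RNA polymerase II and of splicing. In legume seed the cotyledon and coat divide while the seed is small, and then fill, expand and dry.

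Values are RPKM, the reads on a model scaled to its length and to the mapped reads of the library. The library totals behind them ran from 14.7 M alignments in leaf to 187 M in root. The tissue markers went with the labels: leaf photosynthesis models took 7.82% of all RPKM in leaf and at most 0.418% in any other library, maturing seed proteins held 1.91% to 3.97% in the desiccating and dry libraries and at most 0.061% in the others, 15 Casparian strip models summed to 50.7 RPKM in root and at most 1.43 elsewhere, and 6 BAN and TT12 matches summed to at least 203 RPKM in the 3 immature seed coats and at most 14.6 elsewhere, which includes 5.88 and 0.158 RPKM in the desiccating and dry coats. The share of total RPKM on models with an Arabidopsis match was 17.3% for coat of 5-6 mg seed, 40.6% for dry coat, 42.0% for cotyledon of 5-6 mg seed and 74.4% to 94.4% elsewhere, so results on the 5-6 mg seed coat are also given with each library rescaled to those models, a factor of 2 for that coat. All desiccating and dry libraries share a read length that no growing library has, and so stage and read length cannot be told apart between those sets. Fewer dividing cells and less RNA per cell cannot be told apart either. A read could be placed on several models, so that closely alike models share hits.

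Of the 98 members, 83 reached 1 RPKM in at least 1 library and 54 reached 5 RPKM, and no member was at 0 in all 12. The leaf held 71 members at 1 RPKM or more, the root 64, the 5-6 mg cotyledon and the W55 coat 61 each, the Williams coat 58 at 25-50 mg and 42 at 5-6 mg, the axes 28 and 27, and the remaining desiccating and dry libraries 14 to 24. The division classes and the transcription cyclins differed in where they were found. No A-type, B-type, D-type or CDKB model held 1 RPKM in every library, while 11 of the 14 transcription cyclins did, against 24.6% of all models that reached 1 RPKM anywhere. Conversely, 35 of the 83 stayed below 0.1 RPKM in every desiccating and dry library (14 A-type, 5 B-type, 5 CDKB and 11 D-type), against 11.3% of the 41060 models that reached 1 RPKM.

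**Figure D1:**
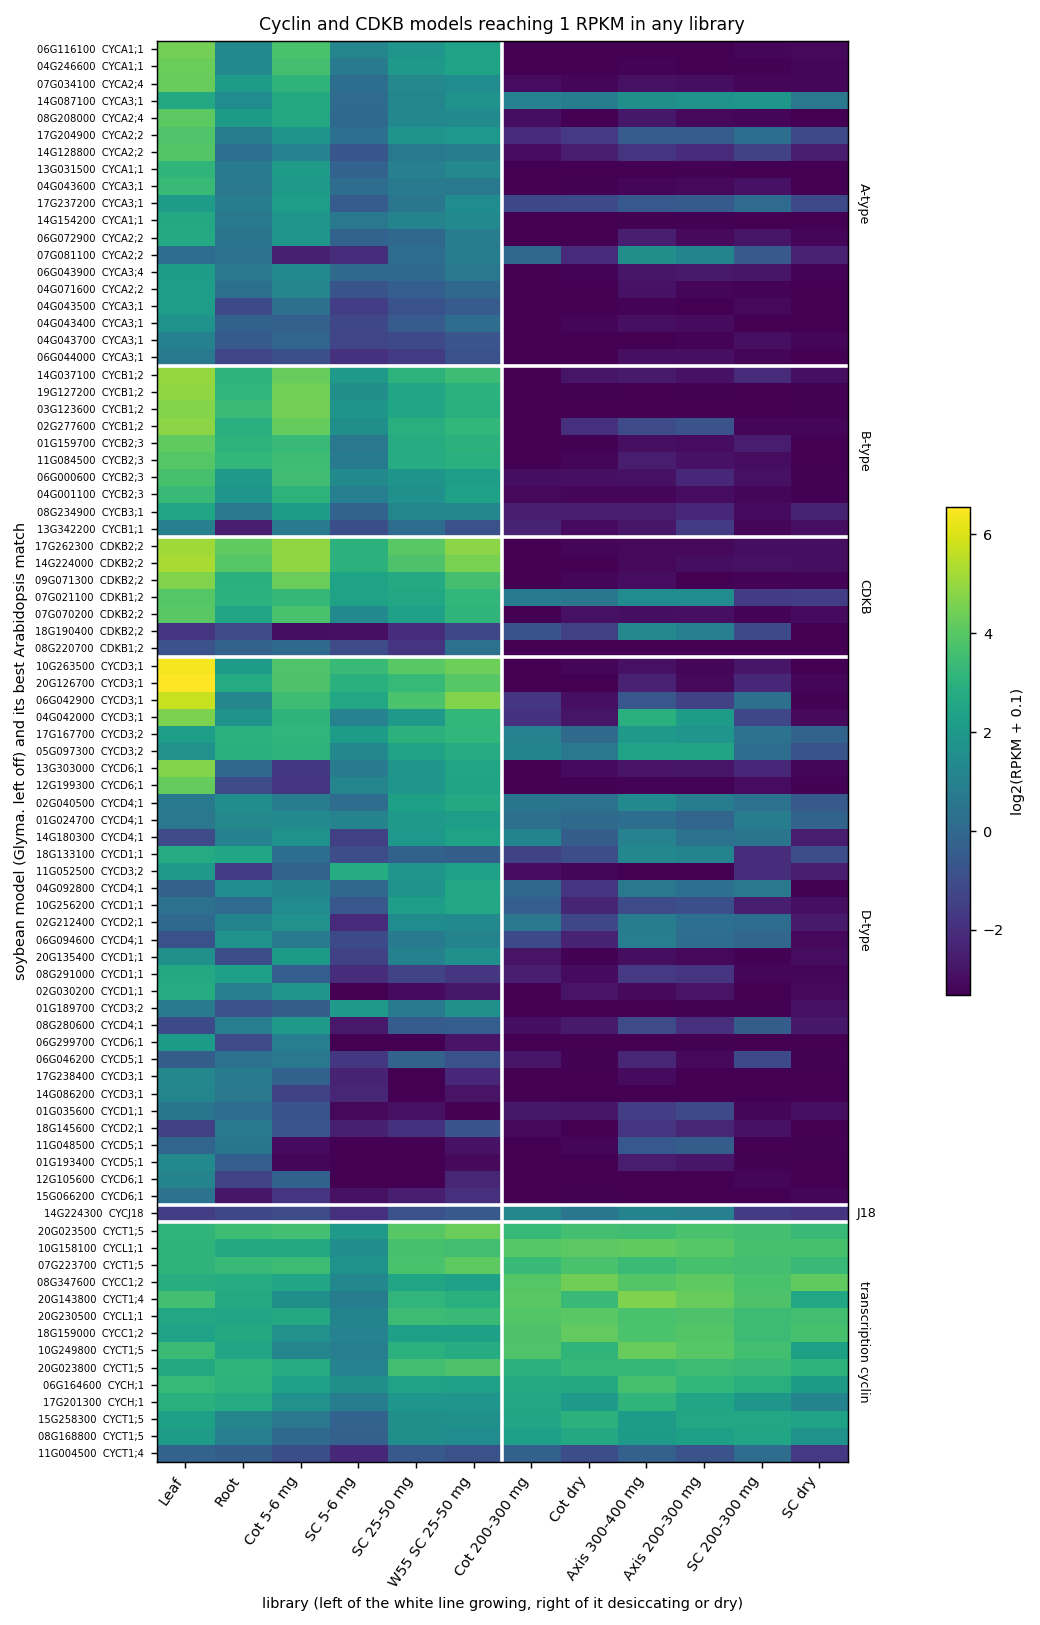
Level of the 83 members that reached 1 RPKM in any library, as log2(RPKM + 0.1), with members in rows grouped by class and libraries in columns, the growing libraries left of the white line and the desiccating and dry ones right of it. Most A-type, B-type and CDKB rows are dark in all 6 libraries on the right, most D-type rows are dimmer there, and the transcription cyclins stay bright.

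The summed RPKM of each class gave the same division. The B-type sum was 180 in leaf, 131 in the 5-6 mg cotyledon, 62.7 in root, 51.0 in the 25-50 mg coat and 21.8 in the 5-6 mg coat, and 0.210 to 1.27 in the desiccating and dry libraries. The CDKB sum was 131, 103.6, 55.1, 47.5 and 29.2 in the same order, and 0.346 to 5.11. The A-type sum was 170, 79.1, 32.1, 31.2 and 15.7, and 2.33 to 7.45. For all 3 mitotic classes every growing library lay above every desiccating or dry one. The D-type sum was 363, 103.6, 74.4, 98.1 and 54.0, against 3.91 to 32.6. The transcription cyclins went the other way, with 99.7, 66.4, 85.9, 106.3 and 27.9 in the growing Williams libraries. The desiccating and dry libraries held 108.3 to 164. These sets did not overlap, but the margin was narrow, and the W55 coat, at 110.3, lay above the dry coat at 108.3. With rescaling the sums were 55.8 to 101 in the growing Williams libraries and 125 to 171 in the desiccating and dry ones. The W55 coat then also lay below every desiccating or dry library. Singly, only 2 of the 14 transcription cyclins separated on the deposited scale. These sums were not set beside all models. On the deposited scale leaf was the highest growing library and the 5-6 mg coat the lowest in all 4 division classes. With rescaling that order changed: the 5-6 mg coat then summed to 58.6 for CDKB and 108.3 for D-type, above root at 47.5 and 64.1, and the CDKB sum was higher in the 5-6 mg cotyledon, at 115, than in leaf, at 107.4.

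**Figure D2:**
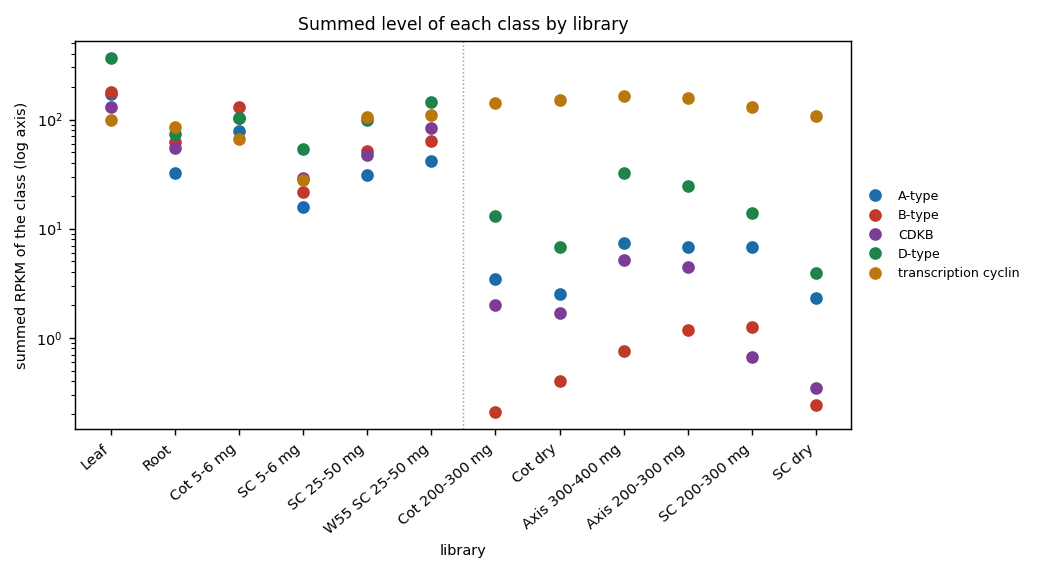
Summed RPKM (log axis) of the A-type, B-type, CDKB, D-type and transcription cyclin classes in each of the 12 libraries, 1 point for each class and library, with the growing libraries left of the dotted line. The B-type sum spans 0.210 to 180 RPKM, while the transcription cyclin sum stays between 27.9 and 164.

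The first question was how far the growing and the desiccating or dry Williams libraries separate. For 40 of the 82 members with 1 RPKM in any Williams library, the lowest of the 5 growing libraries lay above the highest of the 6 desiccating and dry ones, against 12.8% of all models. These were 16 of 19 A-type, 9 of 10 B-type, 5 of 6 CDKB and 10 of 32 D-type members, and no transcription cyclin. In the opposite direction 2 members separated, both transcription cyclins, against 7.45% of all models. That count was 4 with rescaling to models with an Arabidopsis match (8.92%), 8 by the median ratio (11.7%) and 4 with leaf left out (9.43%), all transcription cyclins.

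Among the kinases, 4 matches to CDKB2;2, which in Arabidopsis acts at mitosis and in the shoot meristem, were high in every growing library. Glyma.17G262300 had 30.4 RPKM in the 5-6 mg cotyledon, 8.12 and 16.4 in the coat of 5-6 and 25-50 mg seed, 17.7 in root and 35.4 in leaf, and in the 6 desiccating and dry libraries a lowest of 0, a median of 0.0164 and a highest of 0.0280. Glyma.14G224000 had 30.01, 7.97, 13.6, 15.3 and 38.1 in the same growing libraries, and 0, 0.0214 and 0.0367 as lowest, median and highest of the others. The sets did not overlap for either. The 5-6 mg coat was the lowest growing library on the deposited scale but not with rescaling, where it had 16.3 and 16.0 RPKM, above root at 15.3 and 13.2 and the 25-50 mg coat at 15.6 and 12.97. Glyma.09G071300 ranged from 5.14 in the 5-6 mg coat to 25.5 in leaf, and reached at most 0.0241 in the desiccating and dry libraries. Glyma.07G070200 ranged from 2.56 to 16.0 between the same libraries and reached at most 0.0345. For these 2 as well the 5-6 mg coat lay above root and the 25-50 mg coat with rescaling.

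The CDKB1;2 match Glyma.07G021100 differed from these in the dry embryo. It stood at 9.54 RPKM in the 5-6 mg cotyledon, 5.03 and 5.73 in the coats of 5-6 and 25-50 mg seed, 7.81 in root and 15.3 in leaf. It kept 2.61 and 2.59 in the axes of 300-400 and 200-300 mg seed and 1.51 and 1.37 in the desiccating and dry cotyledon, but 0.233 and 0.259 in the desiccating and dry coat. All growing libraries lay above all others here too, but with embryo and coat apart among the latter. The other members of the class were short models with few hits: Glyma.18G190400, of 369 nucleotides, was highest in the axes at 2.41 and 1.80 RPKM (84 and 65 hits) and at most 0.376 in the growing Williams libraries, and Glyma.08G220700, of 285 nucleotides, was at 0 in every desiccating and dry library and at 0.177 to 0.958 in the growing ones.

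The B-type cyclins, which bind the kinase at entry into mitosis, were led by 4 matches to CYCB1;2. Glyma.03G123600 had 22.5 RPKM in the 5-6 mg cotyledon, 3.34 and 5.58 in the coats of 5-6 and 25-50 mg seed, 10.4 in root and 26.0 in leaf. In the desiccating and dry libraries its lowest and median values were 0 and its highest 0.00489. Glyma.19G127200 had 21.9, 2.803, 5.63, 8.82 and 29.9 in the growing libraries and 0, 0.00235 and 0.00548 in the others. Glyma.14G037100 and Glyma.02G277600 were also highest in leaf and lowest in the 5-6 mg coat among the growing libraries on the deposited scale, with 31.3 and 28.2 in leaf and 3.98 and 2.95 in the 5-6 mg coat, and desiccating or dry highest values of 0.128 and 0.477. The highest of these, 0.477, was in the 200-300 mg axis. With rescaling the 5-6 mg coat was the lowest growing library only for Glyma.02G277600 of the 4, at 5.92. Glyma.03G123600 was then highest in the 5-6 mg cotyledon, at 24.9 beside 21.3 in leaf. The only B-type member of those that reached 1 RPKM to overlap between the sets was Glyma.13G342200, a CYCB1;1 match of 834 nucleotides whose 0.0767 RPKM in root lay below the 0.220 of the 200-300 mg axis.

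The A-type cyclins, which act between DNA synthesis and mitosis, held an exception. The CYCA1;1 matches Glyma.06G116100 and Glyma.04G246600 behaved like the B-type class, with 12.9 and 12.3 RPKM in the 5-6 mg cotyledon, 22.4 and 19.9 in leaf, 1.58 to 3.87 in root and coats, and at most 0.0168 in any desiccating or dry library. The CYCA2;4 match Glyma.07G034100 had 8.42 in the cotyledon and 19.1 in leaf and at most 0.0363 in the others. Glyma.14G087100, a CYCA3;1 match, was not as low as these in the desiccating and dry libraries. It had 6.23 RPKM in the 5-6 mg cotyledon, 0.988 and 2.24 in the coats of 5-6 and 25-50 mg seed, 2.69 in root and 6.04 in leaf, and 1.41, 2.45 and 3.60 as lowest, median and highest of the desiccating and dry libraries. Its values overlapped between the sets, and its highest desiccating value was in the 200-300 mg coat. Of the A-type members that reached 1 RPKM, 2 more overlapped: Glyma.17G237200, with the same closest gene as Glyma.14G087100 and 0.345 to 0.985 in the desiccating and dry libraries, which separated with rescaling (1.29 to 4.92 and 0.312 to 0.940), and Glyma.07G081100, a CYCA2;2 match of 198 nucleotides that was highest in the axes at 2.83 and 2.11 RPKM on few hits.

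The D-type cyclins, which respond to sugar and hormones at the start of the cycle, were the most varied class. The highest values of any member belonged to matches of CYCD3;1. Glyma.20G126700 had 93.7 RPKM in leaf, 13.9 in the 5-6 mg cotyledon, 7.58 and 9.60 in the coats of 5-6 and 25-50 mg seed and 6.64 in root, and 0, 0.0116 and 0.111 as lowest, median and highest of the desiccating and dry libraries. Glyma.10G263500 had 86.0, 14.2, 10.2, 16.3 and 4.14 in the same order and at most 0.0531 in the others. Leaf stood far above the other growing libraries for both, by 14.1-fold (13.4 to 14.9) and 20.8-fold (19.4 to 22.2) over root. Glyma.06G042900 was 52.5 in leaf and 2.31 in root, 22.8-fold apart (20.8 to 24.8), with 1.14 left in the 200-300 mg coat. Glyma.04G042000 was 23.9 in leaf and 3.23 in root, and unlike the other 3 it kept 7.56 and 4.31 RPKM in the axes of 300-400 and 200-300 mg seed, above its 1.95 in the 5-6 mg coat, while the other desiccating and dry libraries held at most 0.327.

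A pair of CYCD6;1 matches, a cyclin known in Arabidopsis for formative divisions in the root, was a leaf and seed coat pair here. Glyma.13G303000 had 26.1 RPKM in leaf, 3.66 and 1.63 in the coats of 25-50 and 5-6 mg seed, 0.922 in root and 0.205 in the 5-6 mg cotyledon, and at most 0.120 in the desiccating and dry libraries. Glyma.12G199300, named here after its values were seen, had 18.5, 3.56, 2.13, 0.374 and 0.193, and at most 0.0241. Leaf exceeded cotyledon 127-fold (99.8 to 164) and 96.1-fold (74.1 to 126) for these. By contrast the CYCD3;2 match Glyma.05G097300 and the CYCD4;1 matches Glyma.02G040500 and Glyma.01G024700, the last 2 named after their values were seen, were not highest in leaf and overlapped between the sets. Glyma.05G097300 had 2.36 to 8.34 in the growing libraries with 3.06 in leaf, and 0.497, 1.78 and 5.27 as lowest, median and highest of the others, with both axes above 5. Glyma.17G167700, its like by closest gene and also named after its values were seen, had 4.34 to 8.95 in the growing libraries and 0.795 to 3.99 in the others, and overlapped only with rescaling. All 4 CYCD7;1 matches, a guard cell cyclin in Arabidopsis, reached at most 0.390 RPKM, and 2 of these, Glyma.06G198800 and Glyma.06G199400, carried identical values in every library. The SDS match Glyma.02G086500 reached at most 0.193, and no flower tissue was sampled.

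Over all classes, leaf was the highest library for 47 of the 83 members that reached 1 RPKM, against 18.9% of the 41060 models. These were 16 of 19 A-type, 10 of 10 B-type, 5 of 7 CDKB and 16 of 32 D-type members, and none of the 14 transcription cyclins. With rescaling to models with an Arabidopsis match leaf was highest for 38 of the 83, against 14.9% of all models: 16 A-type, 16 D-type, 5 B-type and 1 CDKB, while 5 B-type and 5 CDKB members were then highest in the 5-6 mg cotyledon. By the median ratio, the scale on which each library is set level over models found in all 12, leaf was highest for 33, among them 2 B-type and 0 CDKB. The leaf library was also the shallowest and was run on another machine than the root and 5-6 mg libraries, and the part of these in the leaf values was not tested.

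The transcription cyclins were the persistent class. The CYCC1;2 matches Glyma.08G347600 and Glyma.18G159000, partners of the Mediator kinase, were the members in which every desiccating and dry library lay above every growing one on the deposited scale, and did so under both rescalings and without leaf. Glyma.08G347600 had 5.63, 2.35, 5.43, 6.80 and 7.06 RPKM in the 5-6 mg cotyledon, the coats of 5-6 and 25-50 mg seed, root and leaf, and 13.2, 16.2 and 21.2 as lowest, median and highest of the others. Glyma.18G159000 had 3.10, 1.96, 4.81, 6.34 and 5.21, against 10.8, 13.6 and 18.1. For each the highest value on the deposited scale was in dry cotyledon. With rescaling to models with an Arabidopsis match Glyma.08G347600 was highest in dry coat, at 21.3 beside 20.1 in dry cotyledon. Glyma.18G159000 stayed highest in dry cotyledon, at 17.2. The CYCT1;5 matches Glyma.20G023500 and Glyma.07G223700, partners of the kinase that releases RNA polymerase II into elongation, were nearly level, with 9.81 to 12.998 and 9.99 to 13.2 in the desiccating and dry libraries and 8.78 to 15.7 and 8.36 to 13.2 in the growing libraries other than the 5-6 mg coat, where they had 3.80 and 3.27. With rescaling to models with an Arabidopsis match that coat did not stand apart, at 7.61 and 6.54 beside 7.20 and 6.86 in leaf. The CYCL1;1 match Glyma.10G158100, of the splicing cyclins, had 12.7 to 17.6 in the desiccating and dry libraries and 2.75 to 12.8 in the growing ones. With the same rescaling these ranges were 12.1 to 18.3 and 5.30 to 12.2. The CYCT1;4 match Glyma.20G143800 peaked in the 300-400 mg axis at 25.0 RPKM, and the CYCH;1 match Glyma.06G164600, of the kinase that activates other cyclin-dependent kinases, peaked there at 12.7. Of the 14, 11 had their highest library in the desiccating and dry set, against 31.6% of all models that reached 1 RPKM. The CYCJ18 match Glyma.14G224300 also belonged to the dry embryo, with 1.38 to 2.32 RPKM in its cotyledon and axis libraries and at most 0.461 in the growing Williams libraries and 0.228 in the desiccating and dry coats.

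The comparison of the 5-6 mg with the 200-300 mg cotyledon asked what the members did between early and desiccating embryo. A difference is counted where it is at least 4-fold on the log2(RPKM + 0.1) scale, among models with 1 RPKM in either library. Of 63 such members 39 were lower in the desiccating cotyledon, against 24.9% of all models, and 5 were higher, against 20.2%. The lower ones were 14 of 15 A-type, 10 of 10 B-type, 5 of 5 CDKB and 10 of 19 D-type members. The higher ones were 4 transcription cyclins and the CYCJ18 match. The median difference on that scale was -7.63 for CDKB, -6.72 for B-type, -5.21 for A-type, -2.11 for D-type and 1.28 for transcription cyclins, beside 0.03 for all models.

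The leading mitotic members had no hit in the desiccating cotyledon. Glyma.17G262300 went from 7040 hits to 0, at least 497-fold lower, and Glyma.14G224000 from 7968 to 0, at least 562-fold lower, each bound taken at 3 hits in the library without any. The B-type Glyma.03G123600 was at least 519-fold lower and the D-type Glyma.20G126700 at least 372-fold lower. Against these, the kinase Glyma.07G021100 was 6.31-fold lower (5.10 to 7.91) and the A-type Glyma.14G087100 3.11-fold lower (2.63 to 3.72), which did not count as a 4-fold difference. The largest differences upward were Glyma.10G249800, another CYCT1;5 match, 6.63-fold higher (6.03 to 7.29), Glyma.20G143800, 5.48-fold (5.01 to 5.99), and Glyma.18G159000, 4.45-fold (4.02 to 4.91).

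The seed coat took the same course between 25-50 mg and 200-300 mg. Of 59 members 35 were at least 4-fold lower at 200-300 mg, against 19.9% of all models, and 0 were higher, against 9.02%. Lower were 8 of 12 A-type, 10 of 10 B-type, 5 of 5 CDKB and 12 of 18 D-type members, and none of 14 transcription cyclins. The medians were -5.96 for CDKB, -5.29 for B-type, -3.94 for A-type, -3.35 for D-type and 0.54 for transcription cyclins, beside -0.26 for all models. Glyma.17G262300 went from 16.4 to 0.0280 RPKM, 583-fold lower (226 to 2150), on 411 and 4 hits, and Glyma.10G263500 from 16.3 to 0.0531, 306-fold lower (170 to 617). Glyma.07G021100, which was 6.31-fold lower in the cotyledon series, was 24.6-fold lower (17.3 to 35.8) here. Glyma.14G087100 was instead 1.61-fold higher (1.28 to 2.05), and the Mediator partners Glyma.08G347600 and Glyma.18G159000 2.43-fold (2.08 to 2.86) and 2.25-fold (1.89 to 2.70) higher. The cotyledon and the coat comparison both cross the difference in read length.

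Between the 5-6 mg and 25-50 mg seed coats 14 of 58 members were at least 4-fold higher at 25-50 mg, against 34.8% of all models, and 0 were lower, against 1.22%. This split did not outlast rescaling. All models had a median of 1.62 on the deposited scale and 0.57 with rescaling, and with rescaling 2 members were higher and 2 lower, against 10.5% and 3.31% of all models, with a member median of 1.15 before and 0.09 after. The transcription cyclins kept the highest class median, 1.98 and then 0.93, and the CDKB the lowest, 0.77 and then -0.30. The CYCD3;2 pair Glyma.11G052500 and Glyma.01G189700 went down even on the deposited scale, from 6.82 to 3.44 and from 3.96 to 1.60 RPKM, 1.98-fold (1.66 to 2.37) and 2.48-fold (1.91 to 3.27) lower, and with rescaling were 4.16 and 5.22-fold lower. The second of the pair was named after its values were seen. These libraries differ in machine and read length.

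**Figure D3:**
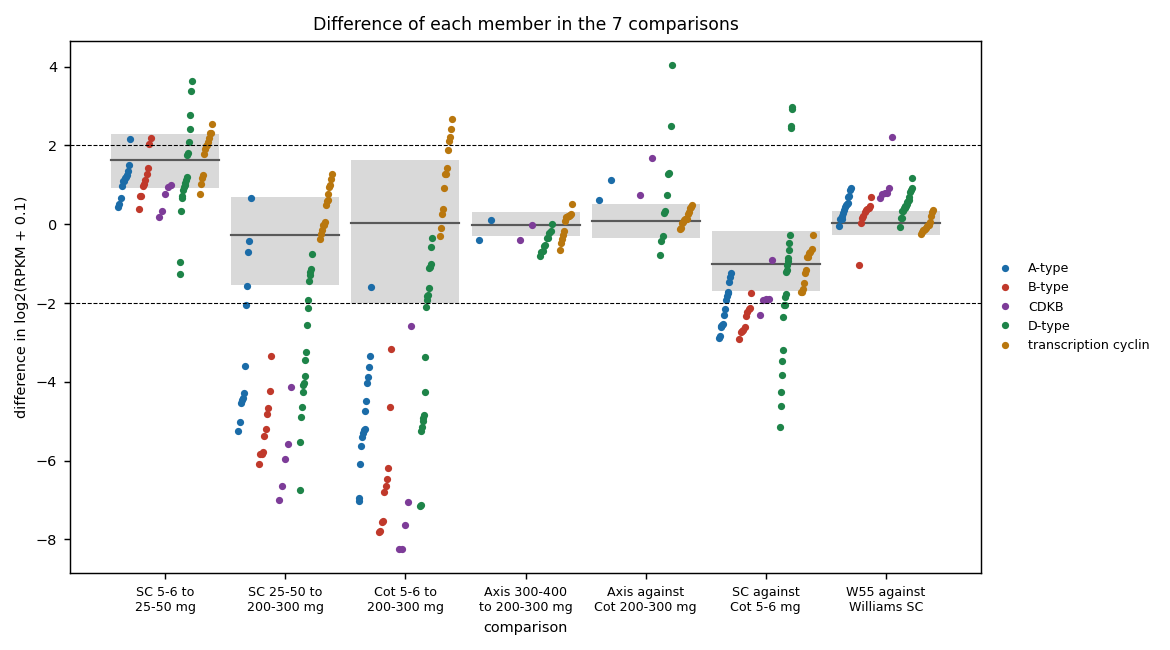
Difference of each member with 1 RPKM in either library in the 7 comparisons, on the log2(RPKM + 0.1) scale, 1 point for each member coloured by class, with CYCJ18 left out. Grey boxes span the quartiles of all models with their median as a line, and dashed lines mark a 4-fold difference. Most CDKB and B-type members lie near the foot of the comparisons from 25-50 mg coat and 5-6 mg cotyledon to desiccating seed. There the medians of these classes are -5.29 to -7.63, and the transcription cyclins lie within or above the boxes.

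The seed coat and cotyledon of 5-6 mg seed, which share a machine and read length, set 2 growing seed tissues side by side. Of 65 members 27 were at least 4-fold lower in the coat, against 16.9% of all models, and 4 were higher, against 7.47%. With rescaling 10 of 68 were lower and 4 higher, against 6.46% and 13% of all models. The median of all models moved from -1.01 to -0.07 and that of the members from -1.83 to -1.04. The mitotic classes lay below all models under either scale, with medians of -2.46 for B-type, -2.14 for A-type and -1.90 for CDKB on the deposited scale and -1.77, -1.37 and -1.05 with rescaling, and no A-type, B-type or CDKB member was higher in the coat under either. Transcription cyclins followed all models, at -0.99 and then -0.05.

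The D-type cyclins divided between these tissues. The 4 members higher in the coat were 2 pairs of D-type cyclins. Glyma.11G052500 had 6.82 RPKM in coat and 0.786 in cotyledon, and its partner Glyma.01G189700 had 3.96 and 0.646. Glyma.12G199300 and Glyma.13G303000 had 2.13 and 1.63 in coat against 0.193 and 0.205 in cotyledon. With rescaling the 4 were 15.7, 11.1, 20 and 14.4-fold higher in the coat. In the other direction, and named after their values were seen, the CYCD1;1 match Glyma.02G030200 had 1478 hits and 3.44 RPKM in the cotyledon and no hit in the coat, at least 460-fold lower, and the CYCD6;1 match Glyma.06G299700 had 1.81 RPKM and no hit, at least 204-fold lower. The CYCD4;1 match Glyma.08G280600 had 3.81 in the cotyledon and 0.0587 in the coat, 65.0-fold lower (40.4 to 112). With rescaling Glyma.02G030200 was at least 254-fold and Glyma.08G280600 35.9-fold (22.3 to 61.8) lower, and the bound of Glyma.06G299700 fell in the same proportion. Glyma.06G299700 thus lay on the opposite side from Glyma.12G199300 and Glyma.13G303000, which have the same closest Arabidopsis gene.

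**Figure D4:**
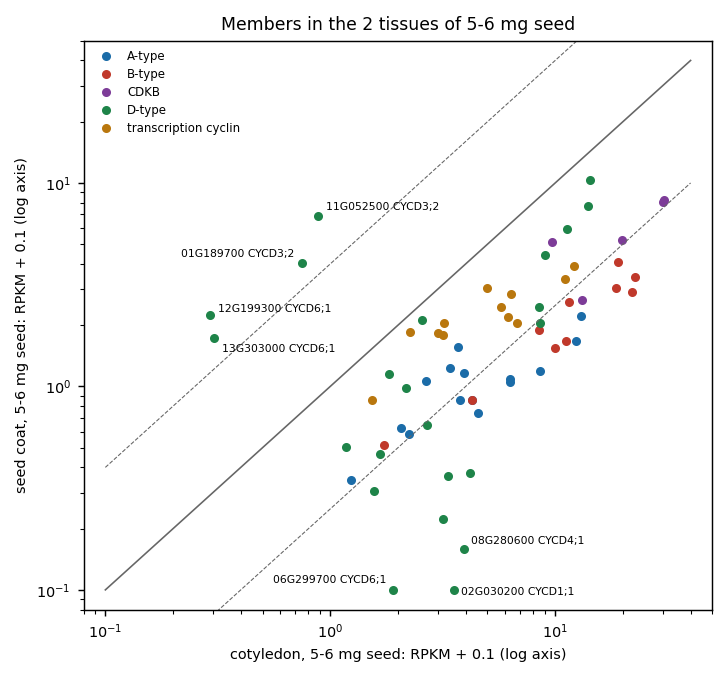
RPKM + 0.1 of each member with 1 RPKM in either tissue in the cotyledon (horizontal, log axis) and seed coat (vertical, log axis) of 5-6 mg seed, coloured by class. The solid line marks equal values and the dashed lines a 4-fold difference, both on the deposited scale: 4 D-type members lie above the upper dashed line, and Glyma.02G030200 and Glyma.06G299700, with no hit in the coat, lie on the floor.

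Within the desiccating embryo the axis and the cotyledon of 200-300 mg seed, which share a machine and read length, differed by 4-fold in few members. Of 28 members 2 were at least 4-fold higher in the axis, against 3.04% of all models, and 0 were lower, against 2.71%. Both were D-type. Glyma.04G042000 had 4.31 RPKM in the axis and 0.167 in the cotyledon, 25.8-fold apart (15.8 to 45.2), and the CYCD1;1 match Glyma.18G133100, named after its values were seen, had 2.07 and 0.286, 7.23-fold apart (4.87 to 11.2). Glyma.18G133100 was otherwise a root and leaf cyclin, at 5.64 and 6.60 RPKM. Glyma.05G097300 was 2.50-fold higher in the axis (2.07 to 3.04), and Glyma.07G021100 was 1.71-fold higher (1.35 to 2.18). The smaller differences leaned towards the axis: 22 of the 28 were above 0, 78.6% against 55.9% of all models, with a median of 0.31 against 0.09. Above 0 were 2 of 2 A-type, 2 of 2 CDKB, 7 of 10 D-type and 11 of 13 transcription cyclin members. Among these the short A-type Glyma.07G081100 and CDKB Glyma.18G190400 had 7 hits each in the cotyledon. Both reached 1 RPKM only in the axis. No B-type member reached 1 RPKM in either library.

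Between the axes of 300-400 and 200-300 mg seed 0 of 28 members differed by 4-fold in either direction, against 1.14% of all models higher and 0.124% lower at 200-300 mg. Seed loses weight as it dries, and the heavier stage was taken as the earlier. The median was -0.20 over the members and -0.02 over all models. Glyma.04G042000 went from 7.56 to 4.31 RPKM, 1.75-fold lower (1.62 to 1.90), the largest difference of the 28. The D-type members were lower in 9 of 10 cases, with a median of -0.44, beside 51.9% of all models lower.

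W55 and Williams seed coats of 25-50 mg seed, which share a machine and read length, compared the black and yellow genotypes. Of 62 members 1 was at least 4-fold higher in W55, against 0.227% of all models, and 0 were lower, against 0.461%. The 1 was Glyma.08G220700, the CDKB model of 285 nucleotides, on 8 hits against 1, 6.66-fold with an interval of 0.892 to 295 that includes no difference. The smaller differences leaned towards W55: 50 of the 62 were above 0 on the log2(RPKM + 0.1) scale, 80.6% against 52.9% of all models, with a median of 0.37 against 0.03. This was so for 14 of 15 A-type, 9 of 10 B-type, 6 of 6 CDKB and 17 of 18 D-type members, and for 4 of 13 transcription cyclins.

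For 32 of the 62 the counting interval lay wholly above equal levels, and for 1, a transcription cyclin, wholly below, against 24.8% and 21.8% of all models. Glyma.17G262300 went from 16.4 RPKM in yellow to 28.2 in black coat, 1.72-fold (1.53 to 1.94), and Glyma.14G224000 from 13.6 to 23.4, 1.72-fold (1.52 to 1.94). The D-type Glyma.06G042900 had 13.4 and 25.5, 1.90-fold (1.71 to 2.12), and Glyma.04G042000 3.98 and 9.13, 2.30-fold (1.95 to 2.72). The transcription cyclin Glyma.20G143800 was 1.18-fold lower in W55 (1.01 to 1.39). Across all models the difference moved with model length, from a median of 0.24 up to 1000 nucleotides to -0.13 above 2000. Within the lengths of 1500 to 2000 nucleotides, 28 of 29 members other than transcription cyclins were above 0 with a median of 0.42, beside 58.7% and 0.07 for all models, and above 2000 nucleotides 10 of 11, with 0.47 beside 35.9% and -0.13. The transcription cyclins were above 0 in 0 of 7 cases within 1500 to 2000 nucleotides, with a median of -0.13, and in 4 of 5 above 2000, with 0.20. With rescaling the median over members was 0.23 and that of all models -0.11. With 1 library for each genotype, these differences cannot be told apart from differences between harvests.

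**Figure D5:**
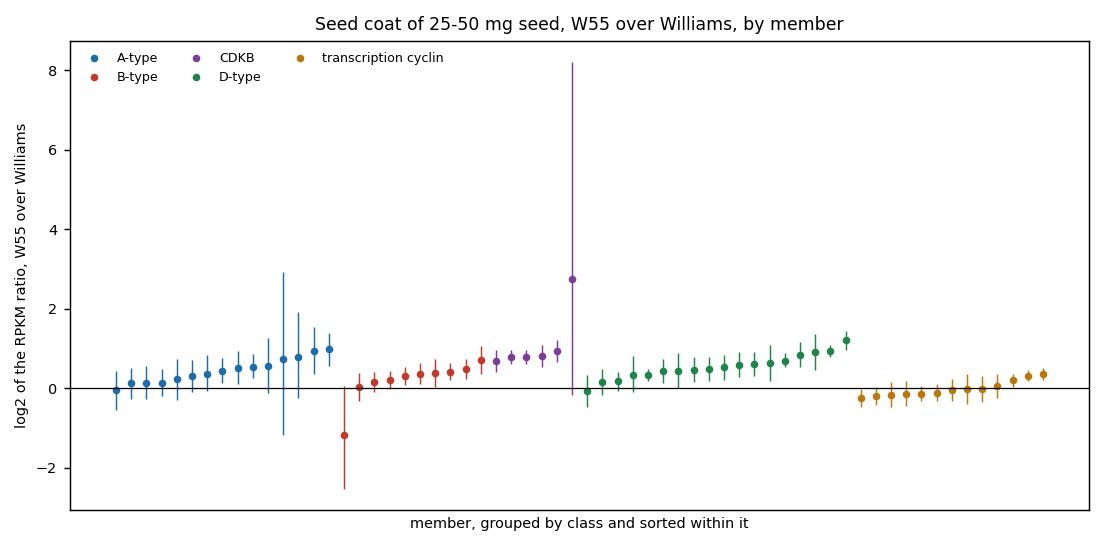
Log2 of the RPKM ratio of W55 over Williams seed coat of 25-50 mg seed for each member with 1 RPKM in either library, grouped by class and sorted within it, with exact 95% counting intervals as bars. Nearly all A-type, B-type, CDKB and D-type members lie above the line of equal levels, within 1 log2 unit of it for most, and the transcription cyclins lie around it.

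Neighbouring models on a chromosome were unequal. In 7 places members were neighbours or near neighbours by model number. On chromosome 3 a run of 4 B-type models held Glyma.03G123600, which reached 26.0 RPKM, beside 3 models that reached at most 0.910. On chromosome 19 Glyma.19G127200 reached 29.9 in leaf on 820 hits, where its neighbour Glyma.19G127300 had 1 hit. Glyma.19G127300 reached 0.869 in the 200-300 mg coat on 114 hits, where Glyma.19G127200 had 0. On chromosome 4 a run of 4 CYCA3;1 matches reached 1.93 to 9.89, all highest in leaf. On chromosome 20 both of a pair of transcription cyclins were high, at 19.5 and 13.6. Since closely alike models share hits, a low value may hold hits of a neighbour that is high in the same library, which was not tested.

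Other cell cycle genes, taken by closest Arabidopsis gene, were set beside the members. Of 36 DNA replication models (PCNA, MCM, ribonucleotide reductase and others) 29 of 33 were at least 4-fold lower in the 200-300 mg than in the 5-6 mg cotyledon and 25 of 33 lower in the 200-300 mg than in the 25-50 mg coat, with none higher in either. Of all models 24.9% were lower and 20.2% higher in the first comparison, and 19.9% and 9.02% in the second. Of 32 mitosis and cytokinesis models 20 of 24 and 19 of 21 were lower, with none higher. The PCNA2 match Glyma.08G334900 had 37.4 RPKM in the 5-6 mg cotyledon and 7.08 and 7.10 in the axes of 300-400 and 200-300 mg seed. The KNOLLE match Glyma.16G151200, the syntaxin of the cell plate, had 19.4 RPKM in the 5-6 mg cotyledon, 14.4 in leaf and at most 0.0124 in the desiccating and dry libraries. The lists of regulators were mixed in the cotyledon comparison. Lower were 4 of 6 MYB3R, 3 of 3 CKS and WEE1, 5 of 10 APC/C activator, 6 of 17 retinoblastoma, E2F and DP, 2 of 6 CDK inhibitor and 2 of 24 other CDK models. Higher were 0, 0, 1, 2, 1 and 13 of the same lists. In W55 against Williams coat the lists differed in direction. The median difference was -0.10 for DNA replication, -0.16 for MYB3R and -0.19 for other CDK models, beside 0.03 for all models. It was 0.39 for mitosis and cytokinesis, 0.53 for APC/C activator and 0.51 for CKS and WEE1 models. For CDK inhibitor models it was 0.25, and for retinoblastoma, E2F and DP models 0.19.

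Outside the members, the models whose log2(RPKM + 0.1) followed the summed CDKB level most closely over the 12 libraries were, among 26274 models with 5 RPKM in any library, Glyma.10G161400 (match to the NIMA-related kinase NEK1, Pearson r 0.98), Glyma.01G009700 (no match), Glyma.01G170200 (beta-galactosidase BGAL3), Glyma.18G034300 (proline synthesis enzyme P5CS2) and Glyma.01G186800 (peptide RALFL34). Of the 54 members compared 25 had r above 0.9, against 4.45% of these models, and 11 had r below 0, against 38.1%. The CDKB members are themselves in the sum. The correlations describe 12 libraries that share an alignment and fall into 2 sets by stage, and they carry no test.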

How the data were processed

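The authors used Bowtie 1 to place reads on 88647 soybean transcripts. Up to 3 mismatches were tolerated, and 1 read could be placed at most 25 times. The deposited values are RPKM for the first splice variant of 56044 models, beside their Pfam domains and closest Arabidopsis gene. The tool is named in the submitters' processing notes, and its version beyond the series number is not given in the sources used here. All 12 value columns were matched to samples by name and 0 were left out. The members and the gene lists were chosen with earlier results of these data known.

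RPKM was compared as differences in log2(RPKM + 0.1), which understate changes of low models, and counted at 4-fold among models with 1 RPKM in either library. Library totals were taken as the smallest that make hits whole within 0.001 for 48 models of listed length, and model lengths as the shortest that do so in every library. Of those 48 lengths 47 were recovered, and all 98 members had one. RPKM ratios carry exact Clopper-Pearson 95% intervals from the hits, and a ratio against 0 is a bound at 3 hits. PCR duplicates and shared placements make hits dependent, so the intervals cover counting error only. The scripts were tested on simulated data.

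Named models were the CDKB members, the 4 highest of each class, the 3 largest differences each way in each comparison and the 10 widest ranges among models reaching 5 RPKM, the 2 highest of each other list and the 10 closest to the CDKB sum. From these the text gives a selection, and other names were chosen after their values were seen. Alternatives were pseudocounts of 1 and 0.01, no minimum and a minimum of 5 RPKM, rescaling to models with an Arabidopsis match or by the median ratio, leaving out leaf or the 5-6 mg seed coat, and adding the W55 coat to the growing set. Promoter motifs were not analysed here. Python 3.11.15, numpy 2.4.6, pandas 2.3.3, scipy 1.17.1 and matplotlib 3.10.9 were used.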

Additional observations from a re-analysis of the deposited data

How the results depend on the processing

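Of 98 alternatives 70 left a count within 1.5 times its value, and 28 did not. Counts of 0 that stayed 0 are among the 70, and a changed minimum alters how many members are compared. The tally is therefore no measure of how stable the results are. No paired analysis was possible because each group is 1 library. The members called follow, with the share of all models in brackets. With a pseudocount of 1, 1 of 58 was higher from the 5-6 to the 25-50 mg coat (10.4%). From the 25-50 to the 200-300 mg coat 20 of 59 were lower (9.09%), and from the 5-6 to the 200-300 mg cotyledon 2 of 63 higher (11.6%). In axis over cotyledon 1 of 28 was higher (0.728%). In the 5-6 mg coat over cotyledon 1 of 65 was higher (2.98%) and 11 lower (5.44%), and in W55 0 of 62 were higher (0.0192%). With a minimum of 5 RPKM fewer members were compared. The same counts were then 8 of 25 (35.5%), 15 of 27 (17.1%), 3 of 36 (25.8%) and 0 of 13 (1.62%). For the 5-6 mg coat over cotyledon they were 1 of 31 (7.09%) and 15 of 31 (20.5%), and for W55 0 of 34 (0.098%). In the cotyledon series 22 of 36 were lower (23.1%). With no minimum 2 of 89 were higher from the 25-50 to the 200-300 mg coat (7.12%) and 4 of 81 higher in axis than cotyledon (2.9%). The 2 in the coat were Glyma.06G198800 and Glyma.06G199400, which carry identical values in every library.

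Rescaling to models with an Arabidopsis match gave 2 of 58 higher (10.5% of all models) and 2 lower (3.31%) from the 5-6 to the 25-50 mg coat. It gave 3 of 65 higher in the cotyledon series (16.9%) and 10 of 68 lower in the 5-6 mg coat than cotyledon (6.46%). For 4 of 84 members every desiccating or dry library then lay above every growing one (8.92%). Rescaling by the median ratio gave 2 of 58 higher (5.47%) and 2 lower (5.93%) between these coats. It gave 10 of 68 lower in the 5-6 mg coat than cotyledon (6.83%) and 0 of 58 higher in W55 (0.132%). For 8 of 80 members the desiccating and dry libraries lay above (11.7%). Leaving out leaf gave 4 of 76 such members (9.43%). With every growing library above, leaving out the 5-6 mg coat gave 44 members, against 18.4% of all models, and adding the W55 coat 41, against 12.6%. The median-ratio scale moved the median of all models from the 25-50 to the 200-300 mg coat from -0.26 to 0.04 and of the members from -3.44 to -3.49. Counts of a few members are set by models close to the limits.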

Other observations

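The P-type cyclins carry another cyclin domain and so are no members. In Arabidopsis they have been linked to phosphate signalling. Of 13 such models 3 had every growing library above every desiccating or dry one, against 12.8% of all models. The CYCP1;1 matches Glyma.03G153800 and Glyma.19G156200 had 8.60 and 6.37 RPKM in leaf, 9.56 and 8.57 in root, and 6.69 and 8.39 in the 200-300 mg cotyledon. The CYCP4;1 match Glyma.03G107800 was a seed coat model of a late stage, with 3.05, 4.80 and 12.9 RPKM in the Williams coat of 5-6, 25-50 and 200-300 mg seed, 0.199 in the dry coat, 2.29 and 2.72 in root and leaf, 0.0221 in the 200-300 mg axis, and no hit in any cotyledon or in the 300-400 mg axis.

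The kinases that are no CDKB went in different ways. The CDKA;1 matches Glyma.15G135800 and Glyma.09G030000, the partners of D-type and A-type cyclins, had 18.8 and 18.7 RPKM in their lowest growing library and 12.8 and 12.3 in their highest desiccating one. The CDKG2 matches Glyma.05G046000 and Glyma.17G128200, known for splicing, had 2.29 and 2.03 in the 5-6 mg coat, 23.8 and 24.6 in root and 68.4 and 41.7 in the 300-400 mg axis. Of the 28 other CDK models with 1 RPKM in any Williams library 10 had all desiccating and dry libraries above all growing ones and 2 the reverse, against 7.45% and 12.8% of all models. Of 15 CDK inhibitor models 4 lay above in the desiccating and dry set and 1 in the growing set. Among the 4 was the KRP3 match Glyma.20G198800, with 10.3 to 18.1 RPKM there and 1.67 to 9.05 in the growing Williams libraries. The CKS2 matches Glyma.11G192100 and Glyma.12G082300, small subunits of the cyclin-dependent kinase complex, had 58.9 and 43.4 RPKM in leaf and 3.61 and 3.43 in the dry coat. The MYB3R1 match Glyma.04G080600, of a family that regulates mitotic cyclins, had 13.8 in leaf and at most 0.148 in the desiccating and dry set, while the MYB3R3 match Glyma.18G181100 had 0.725 to 3.63 in the growing Williams libraries and 4.74 to 8.04 in the others. These values are a description, with no test.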
